A study of Mus musculus with 16 samples.

Results

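The cardiac region of mouse embryos of the line called G3 was compared between embryos labelled mutant for Greb1l and control littermates, gene by gene. The genes described are all those with a value of at least 10 normalized reads in at least 4 of the 8 G3 embryos: 18025 of the 48526 genes in the table. At the edge of this limit, the fourth highest value was 10.1 normalized reads for Gm13042, just inside, and 9.93 for Nkx2-1, just outside. Of the 30501 genes left out, 22317 had no read in any of the 8 embryos. The genotype Greb1l em1Cjean/em1Cjean was carried by 4 embryos (labelled mutant, embryos 23, 29, 30 and 31), and 4 were wild-type littermates (controls, embryos 16, 18, 20 and 21). All 8 were of the C57BL/6J strain at embryonic day 8.5, and the labels name no treatment and no transgene. The sources used here do not give the lesion of the em1Cjean allele, the litters, the somite numbers or the dissection days. A second line, G17, gave another 4 mutant (Greb1l ex17/ex17) and 4 wild-type control embryos of the same strain and stage, and is used below only to show where G3 differed. Values of the labelled mutants are listed in the order 23, 29, 30, 31 and those of the controls in the order 16, 18, 20, 21.

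At this stage the linear heart tube forms, elongates by adding progenitor cells of the second heart field at its poles, and starts to loop to the right. The product of Greb1l resembles GREB1, a nuclear cofactor of steroid hormone receptors. In mice its loss is known for defects of the kidney, inner ear and heart. The title of the series ties the gene to a shortage of heart progenitor cells and to criss-cross hearts, in which the ventricles are rotated about each other. In bulk tissue, fewer cells of a type and less RNA per cell cannot be told apart.

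The G3 libraries held 32391421 (mutant 30) to 49353025 (control 18) reads counted in genes, and 19004 to 21391 genes had at least 1 read. For counting error only, a count of 0 allowed up to 3 reads, which is 2.53 to 3.84 normalized reads over these libraries. Each group held 2 male and 2 female embryos by its own sex-linked RNA. No 2 of the libraries were as close as sampling noise would make them. The labels call the samples single embryos, so the p-values measure the spread between embryos.

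The controls were uneven. Control 18 stood apart most clearly, and the list counts that it moves most are also given without it. In control 18, genes of the placental prolactin, Psg and Ceacam families, together with Tpbpa and Tpbpb of the spongiotrophoblast, summed to 59017 normalized reads, against 211 to 984 in the other 3 controls and 627 to 5678 in the labelled mutants. Of 55 such genes in the table, 36 had a read and 26 of those were highest in control 18; this list was made after the values had been seen. The first principal component, with 22.3% of the variance, set control 18 apart at -138.6, while the second (19.7%) placed all labelled mutants at 37.7 to 71.5 and all controls at -95.8 to -23.8. The summed markers of the myocardium were 172734, 201051, 217887 and 220518 normalized reads in the labelled mutants, against 163949, 244186, 167732 and 167406 in the controls, where the highest value is again control 18. Every one of the 8 myocardium markers was detected in all 8 embryos; none was called with all embryos, and 3 were higher without control 18. Yolk sac visceral endoderm genes also varied: their sums were 27309, 65168, 64101 and 48474 in the labelled mutants, against 82835, 49490, 54771 and 147649 in the controls, and their part in the results was not tested beyond a fit that holds their score as a term.

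**Figure D1:**
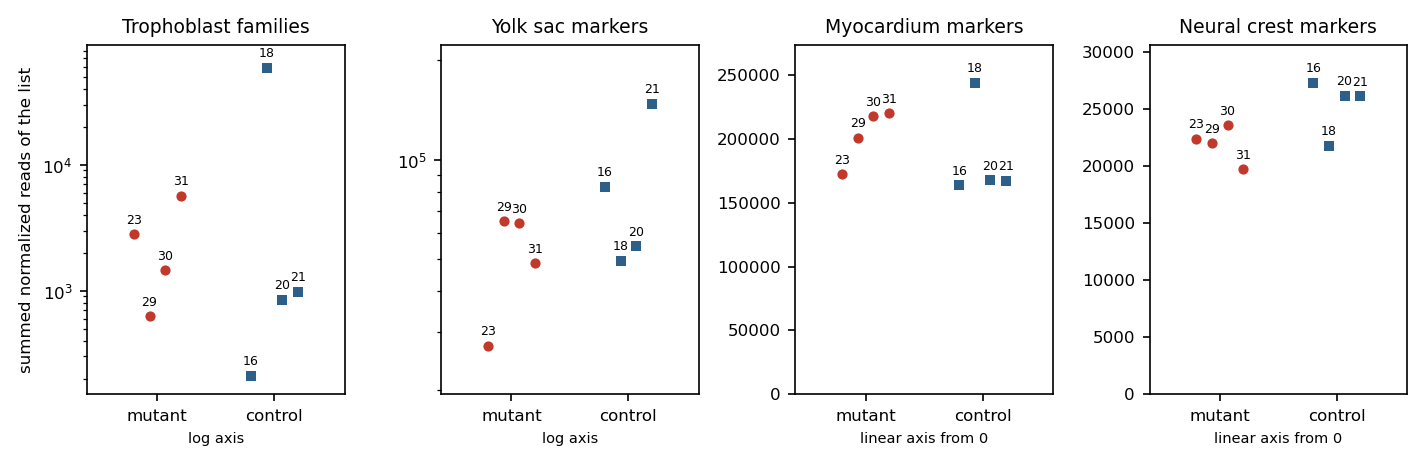
Summed normalized reads of 4 marker lists in each G3 embryo, with the embryo number above its point (circles, labelled mutant; squares, control; log axes for the first 2 panels, linear axes from 0 for the others). Control 18 has 59017 normalized reads of trophoblast genes and the highest myocardium sum, and control 21 the highest yolk sac sum.

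At the targeted gene itself, Greb1l (ENSMUSG00000042942, GRCm38 chromosome 18, 10325177 to 10562940, plus strand), the embryos had 22217, 19026, 23422 and 15911 normalized reads in the labelled mutants, against 11147, 9311, 12529.6 and 10948 in the controls. Every labelled mutant was above every control, so RNA abundance went against the loss that the label mutant would imply if the allele removed the transcript. The log2 fold change was 0.87 ± 0.11 (SE, limma, adjusted p = 0.000824). A two-sided exact permutation test gave p = 0.0286, the lowest value that 70 arrangements of 4 against 4 can give. Counts over the whole gene do not show whether the edited part is read. The libraries are therefore called labelled mutant throughout, and each direction below rests on that label.

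Of the 18025 genes, 424 (2.35%) were higher and 293 (1.63%) were lower in the labelled mutants at a Benjamini-Hochberg adjusted p under 0.05 in limma, or 717 (3.98%) in all. The median log2 fold change over all genes tested was 0.01. The calls were unequal in size: the median was 0.66 for the higher genes and -0.35 for the lower ones, and 116 higher genes but 18 lower genes moved past a log2 fold change of 1. They were also unequal in level. Above a mean of 10000 normalized reads, 23 genes were higher and 62 lower of 738 tested, whereas between 100 and 1000 normalized reads 145 were higher and 40 lower of 5465. Labelled mutants and controls did not overlap at 697 of the 717 called genes, against 2077 of all genes tested (11.5%). Separation of the groups is thus usual at a called gene, and below it only describes the values. The 12 genes of smallest p in each direction were picked for it, so at them it is no result. Over the autosomes and the X chromosome, the share of genes called ran between 3.08% on chromosome 15 and 5.17% on chromosome 16, and on chromosome 18, which carries Greb1l, 10 were higher and 9 lower of 450 (4.22%). Protein-coding genes made up 421 of the higher and 286 of the lower calls.

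Without control 18 the counts were 552 higher (3.06%) and 325 lower (1.8%), and 387 of the 424 and 250 of the 293 were among them. The lowest counts came without mutant 29, at 208 and 124. A fit with a term for the yolk sac score gave 219 and 105, of which 198 and 97 were also called without it. Among the 158 genes named here by rule and called, that term ended 71 calls (adjusted p up to 0.214): 58 of these also ended when some embryo was left out, and the other 13 did not.

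**Figure D2:**
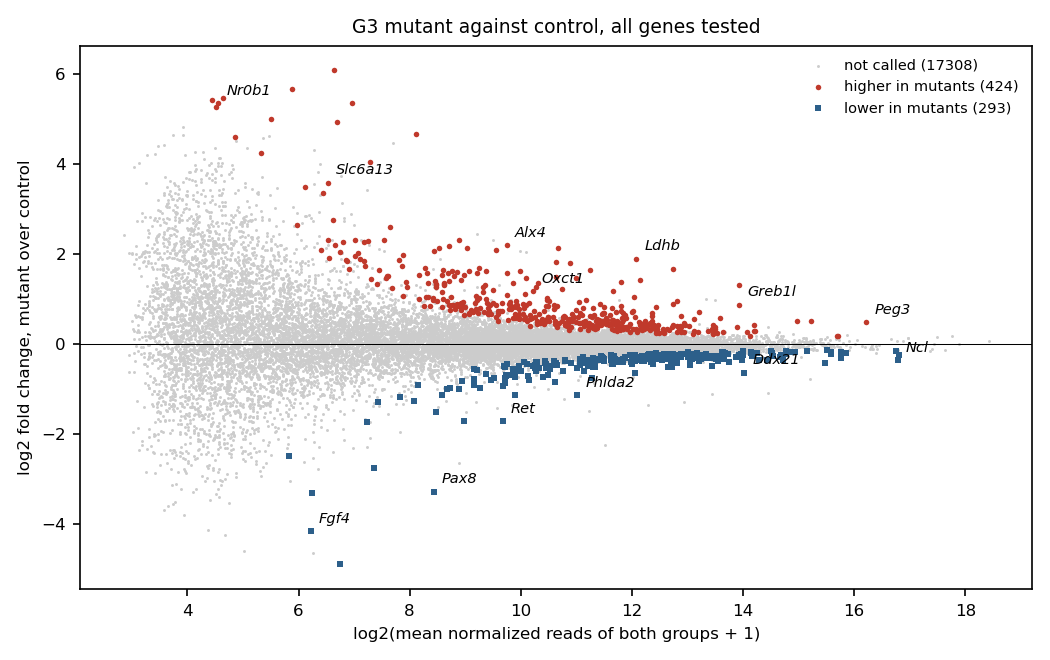
Log2 fold change of labelled mutants over controls against the mean level of each of the 18025 genes tested (circles, 424 higher; squares, 293 lower; grey, not called). Higher genes spread to large folds at low and middle levels, while lower genes crowd at small folds among the most abundant genes.

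The gene with the smallest p was Ldhb, the B subunit of lactate dehydrogenase, the form that prevails in the adult heart (ENSMUSG00000030246, GRCm38 chromosome 6, 142490249 to 142507957, minus strand). It had 6880.3, 6963, 5839 and 7544 normalized reads in the labelled mutants, against 1779.8, 1853, 2011 and 1706 in the controls. The log2 fold change was 1.89 ± 0.09 (SE, limma, adjusted p = 1.65e-07). Dsp, the desmoplakin gene that anchors intermediate filaments at desmosomes of epithelia and the intercalated disc (ENSMUSG00000054889, GRCm38 chromosome 13, 38151294 to 38198577, plus strand), had 20075, 20506, 22943 and 25052 normalized reads in the labelled mutants, against 9039, 9123, 8490.3 and 9280.1 in the controls. Its controls were tight, and the log2 fold change was 1.30 ± 0.07 (SE, limma, adjusted p = 3.99e-07). Pcolce, an enhancer of procollagen processing, had 2574, 2780.1, 2324 and 2910.2 normalized reads in the labelled mutants, against 569.6, 519, 622 and 734 in the controls. For Pcolce the log2 fold change was 2.12 ± 0.12 (SE).

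The other genes among the 12 smallest p that were higher cover transcription, metabolism and adhesion. Tle5, a short member of the Groucho corepressor family, stood at 1.63 ± 0.10 on the log2 fold change scale (SE), and Pgm1, the phosphoglucomutase that links glycogen and glycolysis, at 1.42 ± 0.12. The vertebra-number gene Vrtn had 857, 815, 930.1 and 813 normalized reads in the labelled mutants, against 238, 166, 226 and 157 in the controls, with a log2 fold change of 2.13 ± 0.19. The rule that picked the 12 required all 4 labelled mutants to lie apart from all 4 controls, so this separation is no result. Tmem98 reached 1.48 ± 0.13, the ephrin ligand gene Efnb3 1.18 ± 0.11 and the apical constriction gene Shroom3 0.69 ± 0.07. The homeobox gene Alx4 of limb and facial mesenchyme (ENSMUSG00000040310, GRCm38 chromosome 2, 93642384 to 93681339, plus strand) and the T-type calcium channel gene Cacna1h were also among the 12. Alx4 had 1294, 1536, 1553 and 1226 normalized reads in the labelled mutants, against 398, 265, 223 and 377 in the controls. Each kept its call whichever embryo was left out.

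Among the most abundant of the called genes per kilobase of exon, changes were small. Scd2, a fatty acid desaturase, had 53981, 39676, 43741 and 41989 normalized reads in the labelled mutants, against 30495, 33766, 29988 and 31790.1 in the controls. For Scd2 the log2 fold change was 0.50 ± 0.08 (SE). The others of the higher set were the alpha tubulin gene Tuba1a (0.29 ± 0.05), Selenow (0.33 ± 0.06), the ATP synthase gene Atp5b (0.16 ± 0.03), the microtubule gene Stmn1 (0.24 ± 0.06) and Hint1 (0.25 ± 0.06). Atp5b lost its call without mutant 29 (adjusted p up to 0.0556). Stmn1 kept its call in 2 of the 8 fits that left out an embryo, those without mutant 23 and control 16 (adjusted p up to 0.13), and lost it with the yolk sac term. Hint1 kept its call in 1 of the 8 fits that left out an embryo, that without control 18 (adjusted p up to 0.131), and lost it with the yolk sac term. In the lower set the mitochondrial chaperonin gene Hspd1 had 44531, 45070.4, 44231 and 47609.8 normalized reads in the labelled mutants, against 52671, 53358, 53061 and 52788 in the controls. For Hspd1 the log2 fold change was -0.22 ± 0.04 (SE). Its labelled mutants and controls did not overlap although the shift was small. Ranbp1 (-0.27 ± 0.04), Npm1 (-0.26 ± 0.05), Pabpc1 (-0.16 ± 0.03), Anp32b (-0.19 ± 0.04) and Tmsb10 (-0.18 ± 0.04) were the others. Anp32b lost its call without mutant 29 or control 16 (adjusted p up to 0.0711), or with the yolk sac term. Tmsb10 kept its call in 3 of the 8 fits that left out an embryo, those without mutant 30, mutant 31 and control 18 (adjusted p up to 0.0813), and lost it with the yolk sac term. Npm1 (adjusted p = 0.0682) and Pabpc1 (adjusted p = 0.0603) lost their calls with the yolk sac term. Selenow lost its call in 1 fit of all 16 embryos of both lines. Several of these genes have processed pseudogenes of near-identical sequence, so reads may be shared in a way the unstated settings of the counting tool would decide.

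**Figure D3:**
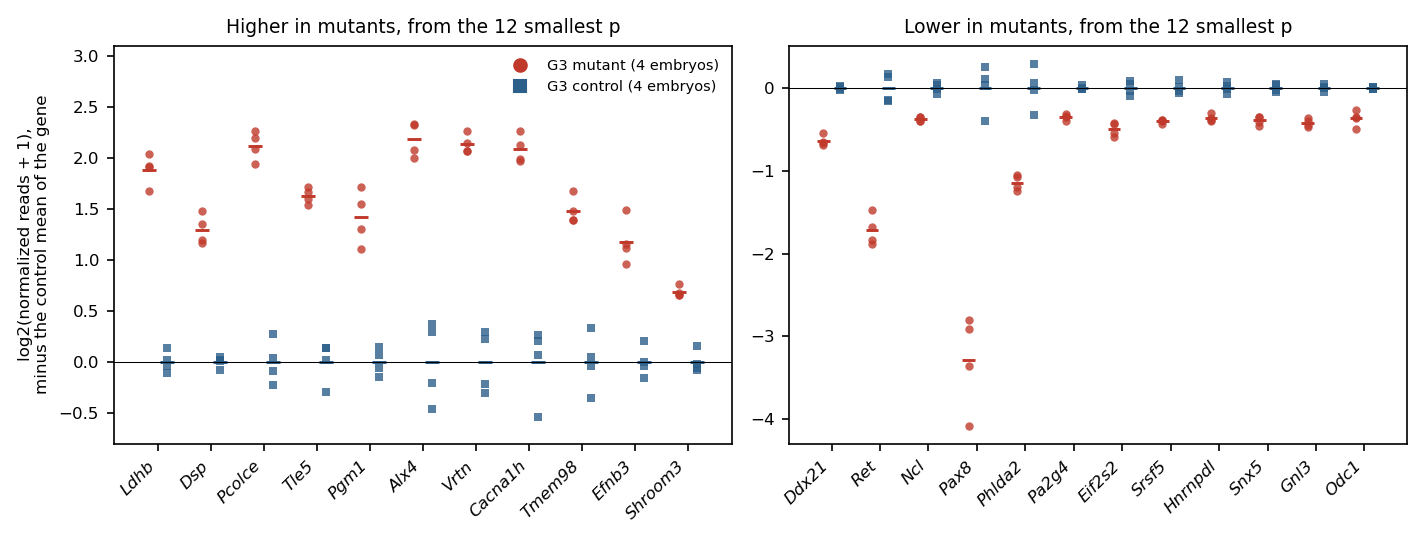
Values of the 8 embryos at 11 higher and 12 lower genes from those with the smallest p, as log2(normalized reads + 1) minus the control mean of the gene (circles, labelled mutants, left of each pair; squares, controls; bars, group means). The 23 genes were chosen for having no overlap between labelled mutants and controls, and Pax8 lies lowest, at a mean of -3.29.

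A large group among the lower genes acts in making ribosomes. In the nucleolus, RNA polymerase I transcribes the ribosomal RNA precursor, small nucleolar ribonucleoproteins (snoRNPs) modify it, the small-subunit processome cleaves it, and further factors assemble and export the large subunit. Over the 111 genes listed for these steps, all of them tested, 48 were lower and none higher, 104 had a negative log2 fold change and the median was -0.27, against 0.01 over all genes tested. The limma fit found 1.63% of all genes lower. No member of the 111 was called higher under any alternative run, and the lower count lay between 27, in the fit with a yolk sac term, and 61, in DESeq2. Leaving out an embryo gave counts between 28 (without mutant 29) and 49 (without control 18).

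By role, the counts were 2 lower of 16 in RNA polymerase I transcription, 9 of 16 among snoRNP and nucleolar proteins, 15 of 37 in small-subunit processing and 22 of 42 in large-subunit assembly. The small-subunit count was between 6 (without mutant 29) and 15 (without control 18) when an embryo was left out, and the large-subunit count between 13 (without mutant 29 or control 20) and 22 (without control 18). Their median log2 fold changes were -0.15, -0.28, -0.23 and -0.29. Nolc1, a nucleolar chaperone that links snoRNPs to RNA polymerase I, had 13882, 14024, 14304 and 14312 normalized reads in the labelled mutants, against 18042, 17161, 20152 and 17929.5 in the controls. For Nolc1 the log2 fold change was -0.37 ± 0.05 (SE, limma, adjusted p = 0.00153). Tcof1, the treacle protein gene of ribosomal RNA transcription, was lower by less (-0.32 ± 0.07) and lost its call without mutant 29, mutant 30 or control 16 (adjusted p up to 0.0636). Of all lower genes the nucleolar helicase gene Ddx21 had the smallest p (ENSMUSG00000020075, GRCm38 chromosome 10, 62580251 to 62602281, minus strand), with 13893, 12540.3, 12749 and 12913 normalized reads in the labelled mutants, against 20479, 20017, 20594 and 20142 in the controls. Its controls lay close together, and its log2 fold change was -0.64 ± 0.04 (SE, limma, adjusted p = 7.62e-06).

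Ncl, the nucleolin gene and one of the most abundant transcripts of these libraries (ENSMUSG00000026234, GRCm38 chromosome 1, 86344719 to 86359400, minus strand), had 96329.8, 96559.8, 99673 and 100052 normalized reads in the labelled mutants, against 130478, 121107, 131893 and 125606 in the controls. The box C/D snoRNP core gene Nop56 (-0.35 ± 0.05 on the log2 fold change scale, SE) and the nucleolar repressor gene Mybbp1a (-0.29 ± 0.05) were lower as well. In the small subunit, the processome gene Wdr43 had 7485, 7823, 6901 and 7150.3 normalized reads in the labelled mutants, against 9941, 9043, 10025 and 9479 in the controls. For Wdr43 the log2 fold change was -0.39 ± 0.06. Mphosph10, another processome component, stood at -0.42 ± 0.07, Nol10 at -0.51 ± 0.09 and the pre-40S export factor gene Ltv1 at -0.37 ± 0.07. At each of these 7 genes the groups did not overlap, which the rule that named Ncl required of it. Each call held whichever embryo was left out, but Ltv1 lost its call with the yolk sac term (adjusted p = 0.0605).

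For the large subunit, Rpf2, which places the 5S ribonucleoprotein on the pre-60S particle, had 1803, 1786, 1758 and 1766 normalized reads in the labelled mutants, against 2939, 2398, 2599.9 and 2982 in the controls. For Rpf2 the log2 fold change was -0.61 ± 0.09 (SE, limma, adjusted p = 0.00174). Nmd3, the adaptor for nuclear export of the pre-60S particle, had 2279, 2063, 2045 and 1902 normalized reads in the labelled mutants, against 3005, 2929, 3074 and 2887 in the controls. The ribosomal RNA methyltransferase gene Nop2 stood at -0.40 ± 0.06 on the log2 fold change scale and Gnl3, the nucleostemin gene, at -0.42 ± 0.05. Both groups were separate at all 4 genes, which the rule that named Gnl3 required of it.

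Ribosomal protein genes, whose products these factors assemble, gave almost no calls, against 2.35% higher and 1.63% lower of all genes tested. Of 76 cytosolic ribosomal protein genes tested, none was called in either direction in limma and the median log2 fold change was -0.02; 5 each were lower by DESeq2 and by the authors' deposited table. The smallest p was that of Rpl24, with 296, 414, 301 and 351 normalized reads in the labelled mutants, against 441, 516, 609 and 686 in the controls and a log2 fold change of -0.72 ± 0.19 (limma, adjusted p = 0.054). Of 77 mitochondrial ribosomal protein genes, 4 were lower and 1 higher (median -0.12), and the lower count was between 2 (in 6 of 8 such fits) and 3 (without control 18 or control 20) when an embryo was left out. Mrpl12 (-0.37 ± 0.07) and Mrps18b (-0.60 ± 0.12) kept their calls in all 8 such fits and lost them with the yolk sac term (adjusted p = 0.0713 for Mrpl12 and 0.0522 for Mrps18b). Of 23 cytosolic tRNA synthetase genes, 22 had negative values with a median of -0.16, and 2, Dars (-0.29 ± 0.06) and Rars (-0.19 ± 0.05), were called. Dars kept its call in 2 of the 8 fits that left out an embryo, those without mutant 23 and control 18 (adjusted p up to 0.0682), and lost it with the yolk sac term. Rars kept its call in 1 of the 8 fits that left out an embryo, that without control 18 (adjusted p up to 0.117), and lost it with the yolk sac term.

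Other genes were among the 12 lower ones of smallest p. Pa2g4, a nucleolar regulator of growth signalling, stood at -0.36 ± 0.04 on the log2 fold change scale (SE), the translation initiation factor gene Eif2s2 at -0.50 ± 0.06, and Odc1, the first enzyme of polyamine synthesis, at -0.37 ± 0.05. The splicing factor genes Srsf5 (-0.40 ± 0.05) and Hnrnpdl (-0.36 ± 0.04) and the sorting nexin gene Snx5 (-0.39 ± 0.05) were lower too. Srsf5 had 11565, 11962, 11851 and 11973 normalized reads in the labelled mutants, against 15227, 15018, 16636 and 15689.9 in the controls. Of 24 genes of the integrated stress response, the serine synthesis gene Phgdh (-0.35 ± 0.07) was lower and none was higher, and it lost its call without mutant 29 (adjusted p up to 0.0533), or with the yolk sac term. Of 15 genes of the MYC network, which activates ribosome biogenesis genes, 2 were higher, the MYC antagonist gene Mxi1 (0.49 ± 0.11) and the carbohydrate-response gene Mlxipl (2.31 ± 0.47). Mxi1 lost its call without mutant 29, mutant 30, control 20 or control 21 (adjusted p up to 0.0825), or with the yolk sac term. Mlxipl lost its call without mutant 29 (adjusted p up to 0.0783). The shares over all genes tested were 2.35% higher and 1.63% lower.

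The promoters of ribosome biogenesis genes that were lower are shown because these genes moved together. RefSeq promoters of GRCm38.p6, from 250 bases before to 50 bases after the start site, were found for 43 of the 47 lower ribosome biogenesis genes that were looked up. They were searched on both strands for CACGTG, the palindromic E-box that MYC and other basic helix-loop-helix proteins can bind. It occurred in 12 of the 43 (27.9%), in 8 of 52 promoters of ribosome biogenesis genes that were not called (15.4%), in 1134 of 11491 promoters of protein-coding genes tested (9.87%) and in 7.24% of all 27025 RefSeq promoters. No test was made of these shares. AGGTCA, a nuclear receptor element, occurred in 5 of the 43 (11.6%) against 12.1% of the promoters of protein-coding genes tested, and TATAAA in 2 (4.65%) against 7.29%. A match is a description of letters, not a bound site. The promoters of the 4 matching genes of smallest p are printed in lower case with the E-box in capitals, on the strand of the gene. The box lies 34 bases after the start site in Rpf2 (chr10:40246990-40247289, minus strand), 17 after it in Wdr43 (chr17:71615965-71616264, plus strand), and at -114 in Nmd3 (chr3:69721805-69722104, plus strand) and -60 in Nop2 (chr6:125131633-125131932, plus strand).
Rpf2: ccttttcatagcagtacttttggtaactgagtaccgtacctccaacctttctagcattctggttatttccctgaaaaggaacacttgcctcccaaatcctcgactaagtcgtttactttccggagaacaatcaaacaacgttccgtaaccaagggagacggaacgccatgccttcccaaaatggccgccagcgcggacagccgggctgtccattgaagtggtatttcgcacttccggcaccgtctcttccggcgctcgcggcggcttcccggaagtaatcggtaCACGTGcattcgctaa
Wdr43: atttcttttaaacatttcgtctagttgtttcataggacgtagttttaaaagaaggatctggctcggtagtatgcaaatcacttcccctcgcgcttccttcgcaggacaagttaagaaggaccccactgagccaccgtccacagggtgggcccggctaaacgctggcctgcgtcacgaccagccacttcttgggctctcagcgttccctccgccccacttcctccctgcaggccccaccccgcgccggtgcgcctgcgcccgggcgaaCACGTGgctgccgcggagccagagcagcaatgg
Nmd3: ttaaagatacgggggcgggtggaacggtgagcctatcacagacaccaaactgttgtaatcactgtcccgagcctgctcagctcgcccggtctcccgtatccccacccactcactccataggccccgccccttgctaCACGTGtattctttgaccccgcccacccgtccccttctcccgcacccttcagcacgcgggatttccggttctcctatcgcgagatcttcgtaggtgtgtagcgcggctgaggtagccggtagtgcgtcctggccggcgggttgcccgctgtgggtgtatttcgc
Nop2: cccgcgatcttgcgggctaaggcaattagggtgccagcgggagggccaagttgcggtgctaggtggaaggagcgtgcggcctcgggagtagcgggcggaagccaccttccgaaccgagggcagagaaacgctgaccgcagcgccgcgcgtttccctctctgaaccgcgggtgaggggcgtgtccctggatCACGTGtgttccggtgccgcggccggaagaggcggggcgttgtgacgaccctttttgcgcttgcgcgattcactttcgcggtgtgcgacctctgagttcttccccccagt

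**Figure D4:**
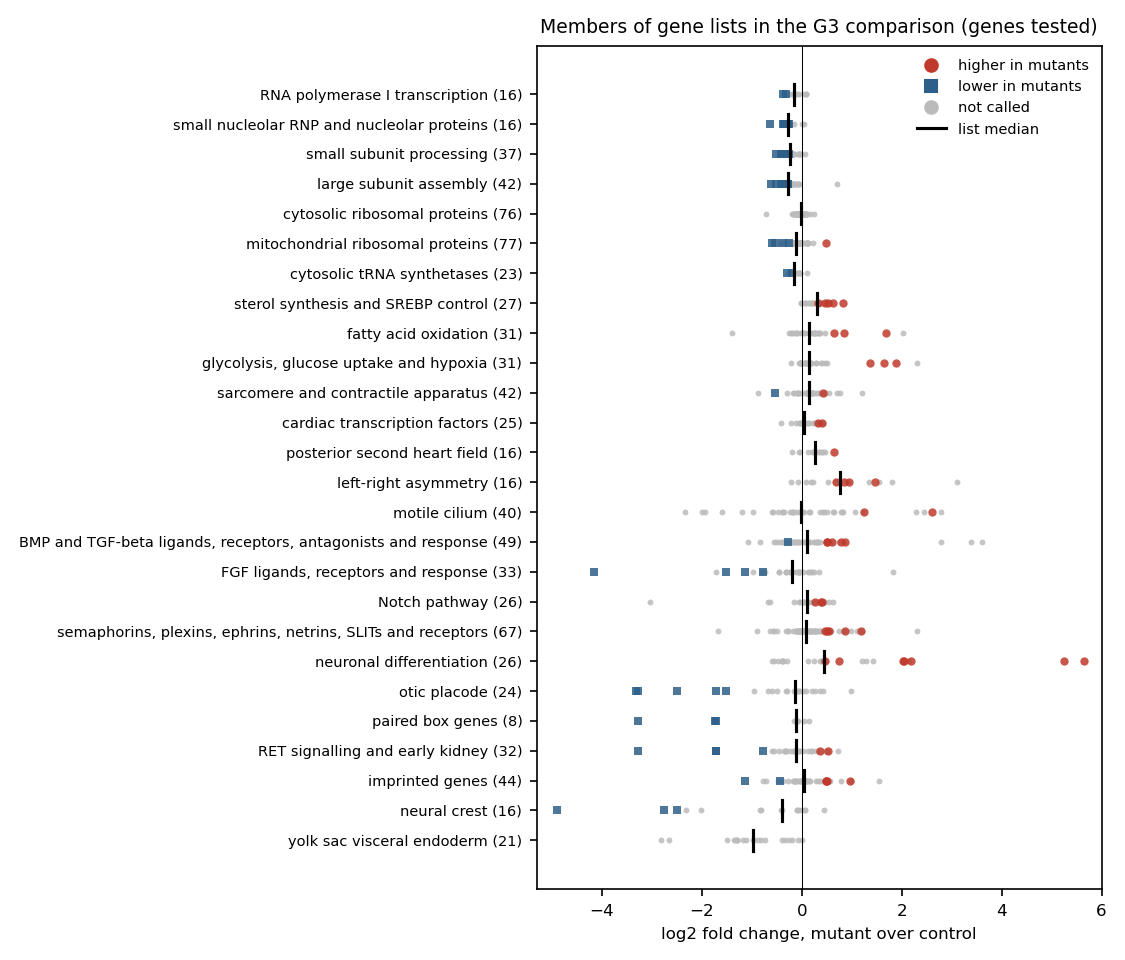
Log2 fold change of labelled mutants over controls for every tested member of 26 gene lists, with the number tested in brackets (circles, higher; squares, lower; grey, not called; black line, list median). The ribosome biogenesis lists lie to the left of 0 with small spread, at medians of -0.15 to -0.29, and cytosolic ribosomal proteins lie at -0.02.

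Some genes for the use of glucose, fatty acids and ketone bodies were called, each of them higher, and most members of these lists had positive values. Of 31 genes of glycolysis, glucose uptake and hypoxia, 24 had positive values, against 51.9% of all genes tested. The median log2 fold change was 0.14, against 0.01 over all genes. In this list 3 were higher and none lower, against 2.35% and 1.63% of all genes tested: Ldhb, the hexokinase gene Hk1 and Gapdh. Without mutant 31, 7 of this list were higher. Hk1 had 4234, 4743, 6113 and 5418 normalized reads in the labelled mutants, against 1729, 2566, 1552 and 2167 in the controls (log2 fold change 1.37 ± 0.15, SE, limma, adjusted p = 0.000258), again without overlap. Gapdh had 9089, 14515, 5247 and 12095 normalized reads in the labelled mutants, against 2207, 5969, 1809 and 3604 in the controls, an uncertain level because Gapdh has many pseudogenes, with values that overlap between groups, and it lost its call without mutant 29, control 16 or control 20 (adjusted p up to 0.0686), or with the yolk sac term. In the authors' deposited table its adjusted p was 0.057. Of 31 fatty acid oxidation genes 22 had positive values (median 0.15), 3 were higher and none lower. Etfa, which passes electrons from fatty acid oxidation to the respiratory chain, had 2017, 2054, 1931 and 2266 normalized reads in the labelled mutants, against 1127, 1149, 1202 and 1114 in the controls. Eci1, an isomerase for unsaturated fatty acids, had 819.6, 984, 842 and 1042 normalized reads in the labelled mutants, against 259, 342, 369 and 206 in the controls. The thiolase gene Acaa2 stood at 0.65 ± 0.13 and lost its call without mutant 29 (adjusted p up to 0.0555).

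Oxct1, the mitochondrial enzyme that commits ketone bodies to oxidation (ENSMUSG00000022186, GRCm38 chromosome 15, 4026383 to 4155344, plus strand), was the only called member of 9 ketone body genes. It had 1506, 1532, 1656 and 1903 normalized reads in the labelled mutants, against 668, 811, 693 and 774 in the controls (log2 fold change 1.16 ± 0.12, SE, limma, adjusted p = 0.000143), and the groups did not overlap. Without control 18 another ketone body gene was lower. In the list for sterol synthesis, 24 of 27 genes had positive values and the median was 0.30. Of these 27 genes, 5 were higher and none lower, against 2.35% and 1.63% of all genes tested. Hmgcs1, the first committed enzyme of the pathway, had 12289, 7955, 7669.7 and 8886 normalized reads in the labelled mutants, against 5228, 5936, 6169 and 6231 in the controls. For Hmgcs1 the log2 fold change was 0.62 ± 0.12. Mutant 23 was the highest embryo at this gene, which kept its call whichever embryo was left out but lost it with the yolk sac term (adjusted p = 0.0747). Acat2 (0.47 ± 0.10) and Cyp51 (0.53 ± 0.12) were also higher. Acat2 lost its call without control 16 (adjusted p up to 0.051), or with the yolk sac term. Cyp51 lost its call without mutant 23, mutant 31, control 16 or control 21 (adjusted p up to 0.0778), or with the yolk sac term. The number of higher sterol genes was between 1 (without control 16) and 5 (without mutant 29, mutant 30 or control 18) when an embryo was left out.

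Respiratory chain and transporter genes gave scattered calls, to be set against 2.35% higher and 1.63% lower of all genes tested. Of 100 nuclear-encoded genes 4 were higher (0 without mutant 29 to 3 without control 18 when an embryo was left out), Sdha (0.22 ± 0.06) and Atp5b among them, and 1 was lower, the cytochrome c gene Cycs, with 3506, 3229, 3451 and 3642 normalized reads in the labelled mutants, against 4245, 4544, 4628 and 5005 in the controls. None of 13 mitochondrially encoded genes was called (4 were lower without mutant 31), and the smallest p was that of mt-Cytb (log2 fold change -0.16 ± 0.06, limma, adjusted p = 0.185). Of 275 solute carrier genes 10 were higher and 2 lower (median -0.01), against 2.35% and 1.63% of all genes tested. The higher count was between 3 (without mutant 29) and 16 (without control 18) and the lower count between 1 (in 4 of 8 such fits) and 6 (without control 18) when an embryo was left out. Slc6a13, a GABA and taurine transporter gene, had 202, 103, 149 and 220.0 normalized reads in the labelled mutants, against 8.49, 11.8, 8.49 and 29.1 in the controls. The aspartate-glutamate carrier gene Slc25a12 of the malate-aspartate shuttle had 709, 698, 740.5 and 638 normalized reads in the labelled mutants, against 207, 404, 278 and 192 in the controls, and the glutamate transporter gene Slc1a3 stood at 0.84 ± 0.15. At all 3 the labelled mutants lay above the controls. Slc25a22, a mitochondrial glutamate carrier gene, was lower (-0.43 ± 0.09) and lost its call with the yolk sac term (adjusted p = 0.0586).

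Few genes of the core cardiac programme passed the threshold. Of 25 cardiac transcription factor genes, 2 were higher and none lower, against 2.35% and 1.63% of all genes tested. The median log2 fold change of the list was 0.04. Gata6, a zinc finger factor of heart and endoderm, had 5392, 5523, 5661 and 7189 normalized reads in the labelled mutants, against 5045, 4312, 3966 and 4475 in the controls (log2 fold change 0.41 ± 0.10), and Myocd, the serum response factor coactivator gene, had 4717, 4796, 4236 and 5420.3 normalized reads in the labelled mutants, against 3579, 4181, 3962 and 3598 in the controls. For Myocd the log2 fold change was 0.32 ± 0.08. Gata6 kept its call in 3 of the 8 fits that left out an embryo, those without mutant 23, control 16 and control 18 (adjusted p up to 0.0885), and lost it with the yolk sac term. Myocd kept its call in 2 of the 8 fits that left out an embryo, those without mutant 30 and control 18 (adjusted p up to 0.124), and lost it with the yolk sac term. Nkx2-5, the homeobox gene of early cardiomyocytes, averaged 3120.2 ± 263 normalized reads in the labelled mutants and 3238 ± 344 in the controls (SD, n = 4) (log2 fold change -0.05 ± 0.09, not called). Tbx5, the T-box factor of the inflow and left ventricle, averaged 2474 ± 289 normalized reads in the labelled mutants and 2069 ± 106 in the controls (SD, n = 4) (0.25 ± 0.09, adjusted p = 0.172).

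Second heart field genes gave 3 higher and none lower of 20 (median -0.06), against 2.35% and 1.63% of all genes tested. The higher count was between 1 (without mutant 29) and 3 (without mutant 31, control 16 or control 18) when an embryo was left out. Bmp4, a signal that drives these progenitors to differentiate, had 2173, 2058, 1895 and 1653 normalized reads in the labelled mutants, against 1193, 778, 1273 and 1370.4 in the controls, and Tdgf1, the Nodal co-receptor gene, had 1817, 1937, 1889.6 and 1964 normalized reads in the labelled mutants, against 858, 1213, 983 and 943 in the controls. The groups did not overlap at either gene. Bmp4 lost its call without mutant 23 or mutant 29 (adjusted p up to 0.0647). Tdgf1 (0.94 ± 0.11, SE, limma, adjusted p = 0.000573) kept its call in all 8 fits that left out an embryo and lost it in 1 fit of all 16 embryos of both lines (adjusted p = 0.166). The progenitor gene Isl1 averaged 1495 ± 354 normalized reads in the labelled mutants and 1267 ± 258 in the controls (SD, n = 4) (log2 fold change 0.24 ± 0.17, limma, adjusted p = 0.514) and Tbx1, the gene of the pharyngeal and outflow progenitors, 1836 ± 495 normalized reads in the labelled mutants and 1951 ± 428 in the controls (SD, n = 4) (-0.11 ± 0.21, adjusted p = 0.842). Of 16 posterior second heart field genes, 13 had positive values with a median of 0.27 and 1 was called, Wnt2, a WNT ligand gene of the venous pole, with 2334, 3386, 3203 and 3469 normalized reads in the labelled mutants, against 1568, 2278, 1809.6 and 2332 in the controls. Wnt2 kept its call in 3 of the 8 fits that left out an embryo, those without mutant 23, control 18 and control 21 (adjusted p up to 0.0986). Of 13 head mesoderm genes, 2 were higher, including Tcf21 (0.81 ± 0.19), which acts in branchiomeric muscle precursors. Tcf21 kept its call in 1 of the 8 fits that left out an embryo, that without control 18 (adjusted p up to 0.116), and lost it with the yolk sac term.

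Sarcomere genes depended on control 18. Over all genes tested, 2.35% were higher and 1.63% lower with all 8 embryos. With all 8 embryos, 1 of 42 was higher, the slow troponin I gene Tnni1, 1 was lower, the stress-responsive titin-binding gene Ankrd1, and the median was 0.14. Without control 18, the list held 11 higher and 1 lower, against 552 (3.06%) and 325 (1.8%) of all genes. The desmin gene Des had 3843, 4309.6, 4230.1 and 5012 normalized reads in the labelled mutants, against 2971, 7117, 3002 and 3001 in the controls; its log2 fold change was 0.22 ± 0.22 with all embryos (limma, adjusted p = 0.669) and 0.53 ± 0.09 without control 18 (adjusted p = 0.00333). The alpha myosin heavy chain gene Myh6 had 43466, 46742, 48212 and 55432 normalized reads in the labelled mutants, against 39287, 60281, 38086 and 40214 in the controls, with 0.15 ± 0.12 (adjusted p = 0.577) and 0.30 ± 0.06 (adjusted p = 0.017). At Des, control 18 lay above every labelled mutant and the other 3 controls below every one. The Z-disc gene Ldb3, the cardiac actin gene Actc1, Myom1, Myh7b, Actn2, Myh7 and Myl2 passed, each of them higher, without that library and not with all 8 embryos. Ankrd1 had 4382, 4834, 6609 and 5305 normalized reads in the labelled mutants, against 6803, 9132, 7099 and 7272 in the controls (log2 fold change -0.53 ± 0.12) and lost its call without mutant 23, mutant 29, mutant 31 or control 21 (adjusted p up to 0.0886), or with the yolk sac term.

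Of 24 calcium handling genes, 2 were higher and none lower. Cacna1h (ENSMUSG00000024112, GRCm38 chromosome 17, 25374285 to 25433783, minus strand) had 1117, 1249, 1368 and 1129 normalized reads in the labelled mutants, against 299, 329, 343 and 195 in the controls, with a log2 fold change of 2.09 ± 0.18 (SE, limma, adjusted p = 6.33e-05). Hrc, the gene of a calcium-binding protein of the sarcoplasmic reticulum, stood at 0.63 ± 0.15 and kept its call in 2 of the 8 fits that left out an embryo, those without mutant 23 and control 18 (adjusted p up to 0.108). Among 104 ion channel genes, 5 were higher and 1 lower, against 2.35% and 1.63% of all genes tested. Kcnh2, the channel of the rapid repolarizing potassium current, had 2839, 2919, 2923 and 3244 normalized reads in the labelled mutants, against 1828, 2441, 1748 and 1936 in the controls. For Kcnh2 the log2 fold change was 0.59 ± 0.10. The sodium channel subunit gene Scn2b (1.01 ± 0.19) and the calcium channel subunit gene Cacnb3 (0.51 ± 0.09) were higher as well. Scn2b lost its call with the yolk sac term (adjusted p = 0.0695). Labelled mutants and controls were apart at these 4 channel genes in every embryo, which the rule that named Cacna1h required of it.

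Gja5, the connexin gene of atrial and trabecular muscle, was the called member of 11 connexin genes, of which 2 were higher without control 18. It had 478, 637, 652 and 415 normalized reads in the labelled mutants, against 90.2, 252, 66.8 and 179 in the controls (log2 fold change 2.05 ± 0.37, SE, limma, adjusted p = 0.008), so that the highest control, 18, remained below the lowest labelled mutant. In the list of chamber identity genes, 15 of 18 values were positive, with a median of 0.28, and Gja5 and the laminin receptor gene Itga6 (0.42 ± 0.06) were called. Higher calls made up 2.35% of all genes tested.

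Left-right genes had the highest median of the signalling and patterning lists, 0.77 over 16 genes, of which 14 were positive. In this list 4 were higher and none lower, against 2.35% and 1.63% of all genes tested. Nodal signalling in the left lateral plate, with its co-receptor TDGF1, sets the left side of the embryo apart. Tdgf1, described with the second heart field genes, and Shroom3 were among the higher members. Nodal itself did not pass (log2 fold change 1.80 ± 1.84, limma, adjusted p = 0.669), nor did Lefty2 (0.92 ± 0.48, adjusted p = 0.332). Foxj1, the master regulator gene of motile cilia, had 329, 272, 323 and 412 normalized reads in the labelled mutants, against 18.03, 101, 49.9 and 90.1 in the controls (log2 fold change 2.60 ± 0.47), but of 40 motile cilium genes 2 were higher, 20 values were positive and the median was -0.02. The other, Tppp3 (1.25 ± 0.32), kept its call in 1 of the 8 fits that left out an embryo, that without mutant 30 (adjusted p up to 0.153), and lost it with the yolk sac term.

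Of the 6 lower genes past a log2 fold change of -2, 5 belong to the lists for the otic placode and neural crest, tissues outside the heart tube, and Fgf4 is the other. Pax8, a paired box factor of the otic, kidney and thyroid primordia (ENSMUSG00000026976, GRCm38 chromosome 2, 24420560 to 24475599, minus strand), had 87.6, 59.1, 80.7 and 35.5 normalized reads in the labelled mutants, against 731, 467, 664 and 632 in the controls. For Pax8 the log2 fold change was -3.29 ± 0.31 (SE, limma, adjusted p = 0.000104), although 1 fit of all 16 embryos gave adjusted p = 0.052. Ret, the receptor gene for glial-derived neurotrophic factors (ENSMUSG00000030110, GRCm38 chromosome 6, 118151745 to 118197718, minus strand), had 388, 347, 448 and 336 normalized reads in the labelled mutants, against 1399, 1124, 1365 and 1112 in the controls. For Ret the log2 fold change was -1.72 ± 0.15, adjusted p = 5.9e-05. Of 24 otic genes, 5 were lower and none higher, with a median of -0.13, against 1.63% lower over all genes tested. The lower count was between 2 (without control 16) and 6 (without control 18) when an embryo was left out, and the median was -0.35 without control 18. Fgf3, an inducer of the otic placode made in the hindbrain, had 218, 202, 219 and 101 normalized reads in the labelled mutants, against 569.6, 303, 673 and 561 in the controls. Pax2 had 279.8, 247, 320.3 and 87.98 normalized reads in the labelled mutants, against 936, 456, 1244 and 444 in the controls and Sox10 18.96, 12.03, 17.9 and 13.5 normalized reads in the labelled mutants, against 144, 87.8, 72.1 and 76.97 in the controls. The groups did not overlap at these 3 genes. Fgf3 lost its call without control 16, control 20 or control 21 (adjusted p up to 0.0534), or with the yolk sac term. Pax2 kept its call in 3 of the 8 fits that left out an embryo, those without mutant 30, control 18 and control 21 (adjusted p up to 0.101), and lost it with the yolk sac term. Sox10 lost its call without mutant 29 or control 16 (adjusted p up to 0.0706), or with the yolk sac term.

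The counts of the next lists are to be set against 2.35% higher and 1.63% lower of all genes tested. The lists of this report share members, so their counts are not independent. Pax8, for example, is in the paired box list and in the RET and kidney list. Of 8 paired box genes 3 were lower (1 in 5 of 8 such fits to 3 without control 18 when an embryo was left out), Pax8, Pax2 and Pax5 (-1.74 ± 0.45), the last of which kept its call in 1 of the 8 fits that left out an embryo, that without control 18 (adjusted p up to 0.138), and lost it with the yolk sac term. Of 32 genes of RET signalling and the early kidney, 4 were lower (2 without mutant 31, control 16 or control 20 to 5 without control 18 when an embryo was left out), including Etv4 (-0.78 ± 0.18), an ETS factor downstream of RET and FGF receptors, and 2 were higher, Grip1 (0.53 ± 0.09) among them. Etv4 kept its call in 2 of the 8 fits that left out an embryo, those without mutant 29 and control 18 (adjusted p up to 0.0776), and lost it with the yolk sac term. Of 16 neural crest genes 3 were lower (1 without mutant 29 or control 16 to 4 without control 18 when an embryo was left out) and none higher, with a median of -0.41; the summed reads of the list were 22352, 21968, 23538 and 19695 in the labelled mutants, against 27255, 21737, 26131 and 26087 in the controls. Ngfr, the low-affinity neurotrophin receptor gene of migrating crest, had 53.3, 112, 12.8 and 29.6 normalized reads in the labelled mutants, against 268, 196, 308 and 329 in the controls. For Ngfr the log2 fold change was -2.76 ± 0.54, and the call ended with the yolk sac term (adjusted p = 0.0569). Foxd3, an early crest specifier, had 10.8, 0, 56.4 and 0 normalized reads in the labelled mutants, against 406, 46.5, 155 and 180.2 in the controls, with no read in mutants 29 and 31, and it kept its call in 2 of the 8 fits that left out an embryo, those without mutant 30 and control 18 (adjusted p up to 0.124), and lost it with the yolk sac term. DESeq2 gave Foxd3 an adjusted p of 0.192, against 0.564 in the authors' deposited table. No labelled mutant reached the lowest control at Ngfr, but mutant 30 exceeded control 18 at Foxd3.

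Of 26 early neuronal genes, 7 were higher and none lower, with a median of 0.44, against 2.35% higher over all genes tested. The higher count was between 1 (without mutant 23 or mutant 30) and 7 (without control 18) when an embryo was left out. Neurog1, the proneural factor of cranial sensory neurons, had 35.2, 89.7, 29.5 and 20.3 normalized reads in the labelled mutants, against 0, 0, 0 and 0 in the controls. With every control at 0 its mean was at least 14.9-fold higher, reckoned against 3 reads per control library. Neurog1 reached 10 normalized reads in the labelled mutants alone and so entered the genes tested through the group where it was high, which makes its call no support for the list. Cdk5r2, an activator gene of a neuronal kinase, had 204, 90.8, 251.1 and 118 normalized reads in the labelled mutants, against 48.8, 24.5, 38.2 and 25.3 in the controls, and Onecut1 162, 158, 252 and 113 normalized reads in the labelled mutants, against 40.3, 37.2, 22.3 and 69.5 in the controls. At all 3 the labelled mutants exceeded every control, yet Neurog1 lost its call without mutant 23, mutant 29, mutant 30 or mutant 31 (adjusted p up to 0.159), or with the yolk sac term. Cdk5r2 lost its call without mutant 23 or mutant 30 (adjusted p up to 0.0808), or with the yolk sac term. Onecut1 lost its call without mutant 23, mutant 29 or mutant 30 (adjusted p up to 0.0851). Summed neural tube markers were 34914, 27449, 33519 and 27079 normalized reads in the labelled mutants, against 26877, 24767, 27946 and 25331 in the controls, a range that overlaps, and their part in these values was not tested. Within that list of 16, the RNA-binding protein gene Msi1 (0.37 ± 0.06) and Sox1 (0.49 ± 0.11) were higher and 1 gene was lower. Sox1 lost its call without mutant 23, mutant 30, control 16 or control 21 (adjusted p up to 0.0729), or with the yolk sac term.

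Of 33 genes of FGF ligands, receptors and response, 4 were lower and none higher, with a median of -0.19, against 1.63% lower over all genes tested. The lower count was between 0 (without control 16) and 5 (without control 18) when an embryo was left out. This list shares members with other lists, such as Fgf4 with the pluripotency and streak list. Fgf4, a ligand of the primitive streak and limb, had 9.03, 0, 14.1 and 19.5 normalized reads in the labelled mutants, against 176, 115, 96.5 and 157 in the controls. Fgf4 lost its call without control 16 or control 21 (adjusted p up to 0.0627), or with the yolk sac term. Fgf15, a ligand made in the brain and pharynx at this stage, had 535, 435, 898 and 508 normalized reads in the labelled mutants, against 1576, 828, 1590.1 and 1233 in the controls, where mutant 30 exceeded control 18, and it lost its call without mutant 29, control 16 or control 20 (adjusted p up to 0.0682), or with the yolk sac term. In the BMP and TGF-beta list of 49, 5 were higher and 1 lower (median 0.10), against 2.35% and 1.63% of all genes tested. The higher count was between 2 (without mutant 29 or mutant 30) and 6 (without control 18) when an embryo was left out. Besides Bmp4, the type I activin receptor gene Acvr1b (0.60 ± 0.10), the ligand gene Bmp6 (0.87 ± 0.19) and the pseudoreceptor gene Bambi (0.50 ± 0.10) rose. Bmp6 kept its call in 3 of the 8 fits that left out an embryo, those without mutant 23, control 18 and control 21 (adjusted p up to 0.0821), and lost it with the yolk sac term. Bambi lost its call without mutant 30 (adjusted p up to 0.0535). Of 32 WNT ligand and R-spondin genes 3 were higher, and between 1 (without mutant 29 or mutant 30) and 5 (without control 18) when an embryo was left out. Rspo1, an enhancer of WNT signalling made in the mesothelium and epicardium, had 599, 581, 788 and 1012 normalized reads in the labelled mutants, against 259, 236, 335 and 198 in the controls. For Rspo1 the log2 fold change was 1.52 ± 0.22. Wnt7a had 237, 219.9, 302 and 157 normalized reads in the labelled mutants, against 0, 0, 13.8 and 61.01 in the controls. Wnt7a lost its call without mutant 23, mutant 29 or mutant 30 (adjusted p up to 0.0716). DESeq2 gave Wnt7a an adjusted p of 0.149, against 0.447 in the authors' deposited table.

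Of 26 Notch genes 3 were higher (1 without mutant 30 or control 21 to 4 without control 18 when an embryo was left out) and none lower, all receptor genes with small changes: Notch1, the receptor gene of the endocardium, with 4033, 3328, 3829 and 4094 normalized reads in the labelled mutants, against 2727, 3131, 2848 and 2782 in the controls (log2 fold change 0.41 ± 0.08), Notch2 (0.26 ± 0.05) and Notch3 (0.39 ± 0.09). Across all genes tested, 2.35% were higher and 1.63% lower. Notch1 kept its call whichever embryo was left out but lost it with the yolk sac term (adjusted p = 0.0953). Notch2 lost its call without mutant 30, mutant 31, control 20 or control 21 (adjusted p up to 0.0584), or with the yolk sac term. Notch3 kept its call in 2 of the 8 fits that left out an embryo, those without mutant 31 and control 20 (adjusted p up to 0.111), and lost it with the yolk sac term. None of 22 hedgehog genes was called in limma (median 0.14; smallest p, Boc, log2 fold change 0.41 ± 0.17, adjusted p = 0.203). In the retinoic acid list of 20 genes, 1 was higher, and Crabp2, the carrier that brings retinoic acid to its receptor, was lower, with 8873, 8189, 7166 and 8886 normalized reads in the labelled mutants, against 10295, 11524, 10473 and 10708 in the controls. The groups did not overlap at Crabp2, which lost its call in 1 fit of all 16 embryos (adjusted p = 0.129). Without control 18 the list held 2 higher and 2 lower. Of 22 Hox genes, Hoxd3 (-0.99 ± 0.23) was lower and it lost its call without mutant 29, mutant 30, control 20 or control 21 (adjusted p up to 0.0895), or with the yolk sac term. Of 39 nuclear receptor genes, Nr5a2 and Nr0b1 were higher. Nr0b1, the DAX1 gene that represses steroidogenic factors, had 38.8, 86.4, 26.9 and 27.1 normalized reads in the labelled mutants, against 0, 0, 0 and 0 in the controls, at least 15.3-fold higher by the same reckoning, and it lost its call without mutant 23, mutant 29, mutant 30 or mutant 31 (adjusted p up to 0.139), or with the yolk sac term. Like Neurog1, it reached 10 normalized reads in the labelled mutants alone. Nr5a2 had 151, 172, 223 and 161 normalized reads in the labelled mutants, against 94.4, 26.2, 24.4 and 27.2 in the controls. Nr5a2 lost its call without mutant 23, mutant 29 or mutant 30 (adjusted p up to 0.0715), or with the yolk sac term.

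Of 67 genes of semaphorin, ephrin, netrin and SLIT signalling, 5 were higher and none lower (median 0.09), against 2.35% and 1.63% of all genes tested. The SLIT receptor gene Robo1 had 6252, 6075, 6349 and 5964 normalized reads in the labelled mutants, against 4813, 4112, 4237 and 4193 in the controls (log2 fold change 0.51 ± 0.06), and the ligand gene Slit3 had 3349, 2989, 3456 and 3024 normalized reads in the labelled mutants, against 2050.3, 2108, 2349 and 2332 in the controls. For Slit3 the log2 fold change was 0.54 ± 0.08. Efnb3 had 3824, 5517, 4288 and 4405 normalized reads in the labelled mutants, against 1766, 2268, 1968 and 1918 in the controls, and Sema4g stood at 0.87 ± 0.16. No labelled mutant overlapped a control at these genes, which the rule that named Efnb3 required of it. Sema4g lost its call with the yolk sac term (adjusted p = 0.0587). Among 37 collagen genes, the basement membrane pair Col4a1 (0.50 ± 0.05) and Col4a2 (0.37 ± 0.07) and Col6a2 (0.73 ± 0.15) were higher and Col12a1 (-0.76 ± 0.15) was lower. Without mutant 23, 5 collagen genes were higher, and without control 18, 2 were lower. Col4a2 lost its call in 1 fit of all 16 embryos (adjusted p = 0.133). Col6a2 lost its call without mutant 29 or mutant 30 (adjusted p up to 0.0693), or with the yolk sac term. Col12a1 lost its call without mutant 29 (adjusted p up to 0.052), or with the yolk sac term. Col4a1 had 38429, 36189.8, 35397 and 40914 normalized reads in the labelled mutants, against 25969, 27628, 25025 and 28203 in the controls. Of 41 laminin and matrix genes 3 were higher (2 without mutant 30, control 16 or control 20 to 7 without control 18 when an embryo was left out), including Lama1 (0.30 ± 0.05) and Itih2, which crosslinks hyaluronan and had 152, 367, 316 and 332 normalized reads in the labelled mutants, against 24.4, 18.6, 8.49 and 16.9 in the controls, and 2 were lower. Lama1 lost its call with the yolk sac term (adjusted p = 0.0575). Hapln1, the hyaluronan link protein gene of cardiac jelly, was one of these, with 6234, 6890.5, 7244 and 7942 normalized reads in the labelled mutants, against 10312, 10122, 9475 and 9363 in the controls. For Hapln1 the log2 fold change was -0.48 ± 0.07.

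Imprinted and pluripotency genes gave calls in both directions, with changes from small to large. Of 44 imprinted genes 4 were higher and 2 lower (median 0.04), against 2.35% and 1.63% of all genes tested. Peg3, a paternally expressed zinc finger gene, had 82718, 89534, 87629 and 96236 normalized reads in the labelled mutants, against 66584, 60102, 62291 and 65594 in the controls (log2 fold change 0.48 ± 0.05, SE), and Plagl1, a growth-suppressing factor, had 7640.4, 9505, 9149 and 11724 normalized reads in the labelled mutants, against 4959, 5020.2, 4068 and 5406 in the controls. For Plagl1 the log2 fold change was 0.96 ± 0.11. Phlda2, a maternally expressed brake on placental growth, had 1194, 1361, 1336 and 1228 normalized reads in the labelled mutants, against 2775, 3464, 2254 and 2953 in the controls (-1.15 ± 0.12), with the highest value in control 18, the library rich in trophoblast RNA. For Phlda2, limma gave adjusted p = 0.000138 without control 18. Mest (-0.43 ± 0.06) was the other lower gene. Of 26 pluripotency and streak genes, 4 were higher (2 in 5 of 8 such fits to 5 without control 18 when an embryo was left out) and 2 lower; Pou5f1, the OCT4 gene, had 1821, 1664, 2074 and 683 normalized reads in the labelled mutants, against 530.3, 347, 551 and 479.6 in the controls, where mutant 31 was lowest among the labelled mutants and still above the controls. Sall4 (0.29 ± 0.07) was higher and kept its call in 3 of the 8 fits that left out an embryo, those without mutant 31, control 18 and control 20 (adjusted p up to 0.107), and lost it with the yolk sac term.

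Markers of other tissues gave few calls, to be set against 2.35% higher and 1.63% lower of all genes tested. Epcam (0.68 ± 0.09) and Cdh1 (0.41 ± 0.09) were the 2 higher of 20 surface ectoderm genes, and Cdh1 kept its call in 3 of the 8 fits that left out an embryo, those without mutant 30, control 18 and control 21 (adjusted p up to 0.0647). Of 13 proepicardium genes, Bnc1, a zinc finger factor of mesothelium, had 568, 760.4, 944 and 810.5 normalized reads in the labelled mutants, against 148, 56.6, 203 and 313 in the controls (log2 fold change 2.31 ± 0.40), and Tcf21 was the other higher member. Of 15 foregut endoderm genes Sox17 (0.65 ± 0.15) was higher and kept its call in 2 of the 8 fits that left out an embryo, those without control 18 and control 21 (adjusted p up to 0.0886), and lost it with the yolk sac term, and of 22 endothelial genes Plvap (-0.39 ± 0.09) was lower and kept its call in 3 of the 8 fits that left out an embryo, those without control 16, control 18 and control 20 (adjusted p up to 0.0819), and lost it with the yolk sac term. The endothelial sum was 45737 normalized reads in control 18 and 27618 to 31584 in the other 7 embryos. Of 15 somite genes Tcf15 (-0.71 ± 0.17) was lower and kept its call in 3 of the 8 fits that left out an embryo, those without mutant 23, mutant 31 and control 18 (adjusted p up to 0.114), and lost it with the yolk sac term. None of 14 erythrocyte genes was called (median 0.48), but without control 18, whose sum was highest at 2925 normalized reads, 2 were higher and the median was 1.23. In that list the embryonic globin gene Hba-x had 157, 449, 546 and 275 normalized reads in the labelled mutants, against 0, 177, 43.5 and 4.69 in the controls (limma, adjusted p = 0.0578). Yolk sac genes had 20 of 21 values negative and a median of -0.97 without a call; Afp, the alpha-fetoprotein gene, had 307, 1749, 1639.8 and 1457 normalized reads in the labelled mutants, against 3171, 1862, 1960.3 and 7011 in the controls, with mutant 23 lowest and control 21 highest.

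Stress and proliferation genes gave few calls, to be set against 2.35% higher and 1.63% lower of all genes tested. Of 26 p53 target genes 2 were higher, Phlda3 (0.91 ± 0.18), an inhibitor of AKT, and Trp53inp1 (0.69 ± 0.14), and none was lower. Phlda3 lost its call without mutant 29 (adjusted p up to 0.0629), or with the yolk sac term. Trp53inp1 lost its call without mutant 29 or mutant 31 (adjusted p up to 0.0633). Of 44 cell cycle genes 1 was higher, the CDK inhibitor gene Cdkn1b (0.58 ± 0.10), and 2 were lower, Ccnd1 (-0.30 ± 0.08) and Ccne1 (-0.38 ± 0.10). Ccnd1 kept its call in 1 of the 8 fits that left out an embryo, that without control 18 (adjusted p up to 0.151), and lost it with the yolk sac term. Ccne1 kept its call in 1 of the 8 fits that left out an embryo, that without mutant 31 (adjusted p up to 0.135), and lost it with the yolk sac term. Cdkn1b had 2489, 2212, 2645 and 2168 normalized reads in the labelled mutants, against 1370.4, 1629, 1782 and 1576 in the controls, without overlap, and lost its call with the yolk sac term (adjusted p = 0.0502). None of 17 immediate early genes passed in limma (1 was higher without control 18), and Jun, with the smallest p, had 1694, 2566, 1660.3 and 2011 normalized reads in the labelled mutants, against 1158, 1728, 1486 and 1239.9 in the controls (limma, adjusted p = 0.0984). Of 33 chaperone genes 2 were higher and 3 lower; the small heat shock gene Hspb1 had 2300.1, 2025, 2055 and 2733 normalized reads in the labelled mutants, against 427, 2307, 348 and 504 in the controls, where control 18 lay within the range of the labelled mutants, and it kept its call in 1 of the 8 fits that left out an embryo, that without control 18 (adjusted p up to 0.104), and lost it with the yolk sac term. Without control 18 the adjusted p of Hspb1 was 1.17e-06, whereas in the authors' deposited table, with all 8 embryos, it was 1.

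The same genes were set beside line G17, whose 4 mutant and 4 control embryos share no sample with G3. Of 714 genes called in G3 and tested in both lines, 678 (94.96%) had the same sign in G17, against 64.3% of all 17108 genes tested in both. Both lines called 238 genes in the same direction, which is 33.3% of the 714 called in G3 and 44.7% of the 532 called in G17. By direction this was 191 of 423 higher genes (45.2%) and 47 of 291 lower genes (16.2%). Over all 17108 genes, 517 (3.02%) were called in G17 with the sign they had in G3. One gene was called in opposite directions, Greb1l.

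The difference between the lines was tested by an interaction term over all 16 embryos, with 2 of 17108 genes past the threshold (0.0117%). By sex-linked RNA every G17 embryo was female, whereas both G3 groups held males and females. The fit had no term for sex, and the part of sex in it was not tested. Greb1l averaged 20144 ± 3377 normalized reads in the labelled mutants and 10984 ± 1319 in the controls (SD, n = 4) in G3, and 4215 ± 961 in the mutants and 9818 ± 508 in the controls in G17 (difference of log2 fold changes, G3 minus G17, 2.11 ± 0.19, SE, limma, adjusted p = 1.4e-05). Oxct1 averaged 1649 ± 182 normalized reads in the labelled mutants and 737 ± 67.2 in the controls (SD, n = 4) in G3, and 4446 ± 355 in the mutants and 683 ± 158 in the controls in G17 (difference -1.57 ± 0.20, SE, limma, adjusted p = 0.00231). Both genes were the same 2 under every alternative run and whichever of the 16 embryos was left out. Oxct1 was higher in the mutants of both lines, with the larger step in G17. Next in order of p were genes that did not pass, among them Srsf5, at -0.40 ± 0.05 in G3 and 0.08 ± 0.09 in G17 (limma, interaction adjusted p = 0.657), and Rpf2, at -0.61 ± 0.09 in G3 and -0.10 ± 0.10 in G17 (interaction adjusted p = 0.703). Ldhb stood at 1.89 ± 0.09 in G3 and 2.05 ± 0.10 in G17, Cacna1h at 2.09 ± 0.18 and 1.98 ± 0.14, and Pax8 at -3.29 ± 0.31 and -4.85 ± 1.10.

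**Figure D5:**
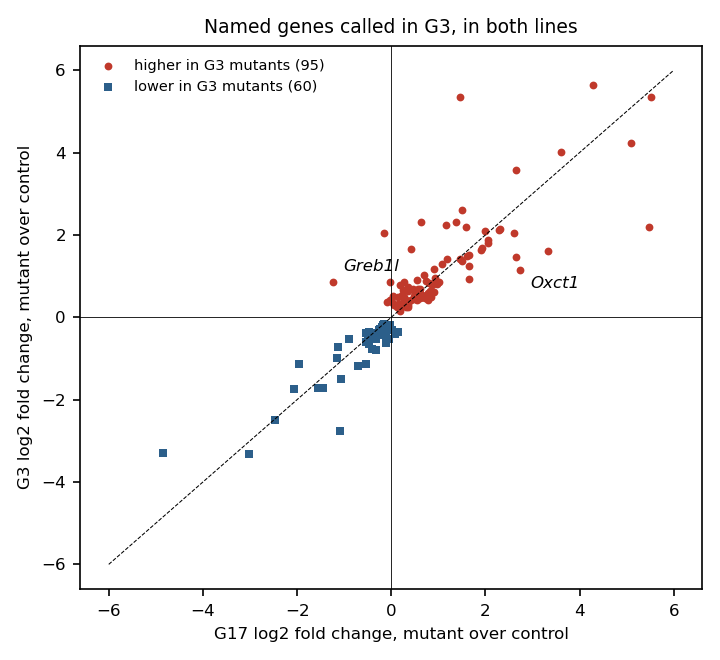
Log2 fold change in G3 (vertical) against G17 (horizontal), labelled mutants over controls, for the 155 named genes called in G3 and tested in both lines (circles, 95 higher in G3; squares, 60 lower; dashed line, equal values). Greb1l lies in the upper left, apart from the other higher genes, and 147 of the 155 genes have the same sign in both lines.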

How the data were processed

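Per the labels' protocols, cardiac regions were microdissected, frozen and extracted as total RNA with integrity numbers above 9.0, and libraries were read as pairs of 100 bases. HISAT2, featureCounts of Subread and DESeq2 were used on build GRCm38, per the submitters' processing notes; the sources used here do not give their versions, the counting settings or the strand marking, so overlapping genes on opposite strands may share reads. The authors deposited a normalized signal per gene and embryo, reads over the DESeq2 size factor of that embryo, computed per line, and p-values of their own test, per the file headers and values. Each value times its size factor was a whole number of reads within 0.06 (100% of values), so whole reads were recovered for count tests as an alternative, and 0 per-sample columns were left unused. Depth is the sum of those reads.

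In R 4.3.3, limma 3.58.1 with a mean-variance trend was fitted to log2(value + 1) of the 8 G3 embryos, for genes with at least 10 in at least 4 embryos, and an adjusted p under 0.05 (Benjamini-Hochberg over all genes tested) was a call. A fold change is a difference of group means on that scale. The added 1 shrinks changes of low genes, but values at 0 in some embryos can enlarge them. Foxd3, for example, stood at -4.90 in limma and -3.56 in DESeq2. The lines were normalized separately, so the interaction used all 16 embryos with each line set against its own controls. On simulated G3 counts of 16981 genes this fit recovered 23.1% of 65 genes changed by a log2 fold change of 0.5. It recovered 65.1% of 63 changed by 1 and 80.3% of 61 changed by 2, and 3.67% of its calls on these counts were false. The share of false calls in the embryos themselves, whose trophoblast and yolk sac sums varied, was not tested. Alternatives were edgeR 4.0.16 (quasi-likelihood, RLE or TMM factors) and DESeq2 1.42.0 on recovered reads, the authors' deposited p-values, no filter or at least 100, pseudocounts of 0.1 and 5, sex as a term, 1 fit of 16 embryos and each embryo left out; terms for trophoblast and yolk sac scores were added after seeing the data.

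The genes and lists were chosen with earlier results of these data known. Named genes were Greb1l, the 12 smallest p in each direction with a mean of at least 100 in the higher group and no overlap, the 6 called genes of highest level per kilobase of exon in each direction, up to 4 called members of each list (or the smallest p) and the 10 smallest p of the interaction; Nkx2-5, Tbx5, Isl1, Tbx1, Nodal, Lefty2 and the sarcomere genes named for control 18 were chosen after their values were seen. A few genes that meet these rules are not reported here. Coordinates are from GENCODE M21.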

Additional observations from a re-analysis of the deposited data

Results flagged for a closer look

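In each group of 4 embryos, a value was singled out where its gap to the nearest other embryo, divided by the whole range of the group, passed the 95% critical value of Dixon's test. This was examined in 342 groups over the 171 named genes and singled out 15 groups. Chance singles out about 1 group in 20, so the yield over the named genes is near what chance gives. Control 18 stood out for the summed trophoblast genes, at 59017 normalized reads against 211 to 984 in the other controls. It was also high for Hspb1 (2307, others 348 to 504) and for the beta myosin heavy chain gene Myh7 (25683, others 17988 to 18536), and low for Tuba1a (15482, others 17227 to 17367) and the hedgehog co-receptor gene Boc (1581, others 2114 to 2161).

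Other control values stood apart in single genes. Control 16 was low for Grip1 (1081, others 1110.4 to 1110.6) and high for Nr5a2 (94.4, others 24.4 to 27.2). Control 20 was high for Tmsb10 (53766, others 51220.4 to 51439). Control 21 was high for Slc6a13, at 29.1 normalized reads against 8.49 to 11.8.

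Among the labelled mutants, embryo 23 was high for the sterol gene Acat2 (3854, others 3095 to 3187) and the WNT receptor gene Fzd5 (695, others 510.1 to 538). Embryo 30 was high for Pabpc1 (108413, others 102334 to 103227). Embryo 31 was high for Gata6 (7189, others 5392 to 5661) and Ranbp1 (22793, others 20952 to 21151) and low for Fgf3 (100.7, others 202.4 to 219).

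The effect of the mutant label differed between the lines, by the interaction test in limma, for Greb1l (2.11 on the log2 scale, G3 minus G17) and for Oxct1 (-1.57).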

How the results depend on the processing

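The limma fit of all 8 embryos called 424 genes higher and 293 lower in the labelled mutants. Most other settings moved these counts by less than 1.5 times: edgeR gave 360 and 249 with RLE factors, 520 and 396 came from the authors' deposited table, and sex as a term 369 and 244. DESeq2 gave 679 and 589, which include 413 of the 424 and 292 of the 293, and a term for the yolk sac score gave 219 and 105; the cause was not tested. Leaving out 1 embryo gave 208 to 552 higher and 124 to 325 lower genes, the lowest without mutant 29 and the highest without control 18. Of the 158 named genes called, 86 kept their call in all 8 of these fits, 71 lost it with the yolk sac term, 38 in 1 fit of all 16 embryos, 20 with no filter, 17 with sex as a term, 16 and 14 in edgeR (RLE and TMM), 13 with a pseudocount of 0.1, 6 in the authors' deposited table and 3 in DESeq2, and no named gene reversed its direction under any setting run. Greb1l and the interaction kept their calls under every setting run. No paired analysis was possible because the sources used here do not give the litters. With 4 embryos a group, a gene without a call may still differ by a shift that these embryos cannot resolve.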
